A study of Mus musculus with 14 samples.

Results

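Cubn, Amn, Lrp2 and Dab2, a set of 4 genes for endocytic receptors and their adaptor, were followed through the differentiation of mouse embryonic stem cells (ESCs) into embryoid bodies (EBs). They were picked by symbol, as genes used both by the visceral endoderm and by the kidney tubule, out of 50686 genes in the count table. All 4 were also listed in the normalised table of 16181 genes. The rule itself uses no measured value. The 14 libraries came from 2 lines, shDis3l2, which carries a hairpin against the RNA exonuclease gene Dis3l2, and the control shLacZ, whose hairpin targets LacZ. Each line gave 1 library on every second day from d0 through d12. At d0 both lines were undifferentiated ESCs kept in LIF and 2i. From then on both were grown without LIF and 2i in serum, first in hanging drops and then in suspension, as EBs, which are aggregates that differentiate without further direction. Both lines were Osr1-GFP reporter ESCs with stable knockdown, and each stands for a single line.

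Megalin (Lrp2), a giant transmembrane receptor of the LDL receptor family, and cubilin (Cubn), a large peripheral membrane protein, take up proteins, vitamins and lipoproteins from the fluid that bathes an epithelium. Cubilin has no membrane anchor of its own and reaches the surface bound to amnionless (Amn), the pair being known as cubam, the receptor for vitamin B12 bound to intrinsic factor. Dab2 is a clathrin adaptor that binds the cytoplasmic tails of megalin and amnionless and loads them into coated pits. In the embryo the set serves the visceral endoderm, the absorptive layer that feeds the early conceptus, and in the adult the proximal tubule, which recovers filtered protein from the urine. EBs often form an outer layer of visceral endoderm.

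The 4 genes lie at separate loci in GRCm38. Cubn spans chr2:13276338-13491813 on the minus strand with 66 exon blocks, Lrp2 chr2:69424340-69586065 on the minus strand with 80, Amn chr12:111271111-111276426 on the plus strand with 12 and Dab2 chr15:6299788-6440712 on the plus strand with 22. Their exons add up to 14935 bases for Cubn, 16701 for Lrp2, 1685 for Amn and 7342 for Dab2, so that Amn yields few reads for a given number of transcripts. Among genes annotated on the other strand, Gm13270 had 48 reads over all libraries against 108891 for Cubn, and Gm16311 had 0 against 77009 for Dab2. A further gene model antisense to Dab2 was not analysed here.

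The 250 bases before each start site are shown because the 4 genes moved together in the comparisons that follow and because their base composition differs. They are from RefSeq (GRCm38.p6), 5′ to 3′ on the gene's strand, with 1 start for Cubn, Amn and Lrp2 and 2 for Dab2.
Cubn, chr2:13491877-13492126, - strand: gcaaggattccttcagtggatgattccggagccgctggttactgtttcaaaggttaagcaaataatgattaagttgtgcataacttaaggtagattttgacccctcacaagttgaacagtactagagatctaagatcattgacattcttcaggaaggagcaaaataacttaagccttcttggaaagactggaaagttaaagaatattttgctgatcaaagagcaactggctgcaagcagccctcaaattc
Amn, chr12:111270846-111271095, + strand: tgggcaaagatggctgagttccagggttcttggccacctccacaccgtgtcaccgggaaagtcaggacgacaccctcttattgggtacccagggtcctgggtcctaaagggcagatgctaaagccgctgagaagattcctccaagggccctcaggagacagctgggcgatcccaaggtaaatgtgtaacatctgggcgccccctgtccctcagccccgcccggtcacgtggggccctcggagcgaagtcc
Lrp2, chr2:69586030-69586279, - strand: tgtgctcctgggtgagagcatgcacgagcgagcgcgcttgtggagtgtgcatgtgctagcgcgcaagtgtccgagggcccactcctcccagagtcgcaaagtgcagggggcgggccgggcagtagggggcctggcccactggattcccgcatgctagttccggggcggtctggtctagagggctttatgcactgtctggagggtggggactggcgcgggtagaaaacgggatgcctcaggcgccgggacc
Dab2 upstream start, chr15:6299539-6299788, + strand: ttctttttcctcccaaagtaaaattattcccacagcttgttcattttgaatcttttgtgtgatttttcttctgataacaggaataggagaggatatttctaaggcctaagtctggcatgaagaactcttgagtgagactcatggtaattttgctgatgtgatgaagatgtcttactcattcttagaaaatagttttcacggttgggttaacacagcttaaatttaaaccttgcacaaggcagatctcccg
Dab2 downstream start, chr15:6386498-6386747, + strand: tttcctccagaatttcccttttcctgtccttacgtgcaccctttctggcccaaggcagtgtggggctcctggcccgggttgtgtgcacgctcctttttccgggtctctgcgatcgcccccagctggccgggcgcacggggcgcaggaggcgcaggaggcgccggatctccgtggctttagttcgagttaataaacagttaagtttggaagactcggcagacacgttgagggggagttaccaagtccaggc
GC made up 39.6% of the Cubn promoter and 36.8% of the upstream Dab2 promoter, against 61.2% for Amn, 66.4% for Lrp2, 60.0% for the downstream Dab2 promoter and a median of 52.4% over 32851 promoters. Both strands were searched for motifs of 3 families of endoderm regulators. The HNF4 letters AAAGTCC stood in 3.58% of all promoters of this length. The GATA letters AGATAA were held by 9.99%. For FOXA, TGTTTAC was held by 3.17%. None of these exact letters stood in the windows of the 4 genes, which says nothing on binding there or elsewhere. Other forms of the motifs were not searched, such as TGATAA, which the upstream Dab2 window holds.

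Dis3l2, the targeted gene, was lower in shDis3l2 on 5 of 7 days. In percent of shLacZ, shDis3l2 held 13.7% (d0), 28.1% (d2), 32.1% (d4), 55.2% (d6), 97.1% (d8), 94.98% (d10) and 75.4% (d12). At d8 and d10 the exact 95% interval of the ratio included equality, so a lower level was not detectable on these days. Libraries held 7178712 to 39888099 reads on genes. Levels are given as CPM, the reads of a gene scaled to a common library total, on which scale 3 counts, taken as the floor, equalled 0.0752 to 0.418. All intervals speak of counting error alone and treat reads as independent. Reads amplified by PCR and not tagged by molecule are not independent, so the intervals can be too narrow even for counting error. The d0 libraries stood apart, with protein-coding genes at 78.4% (shLacZ) and 75.3% (shDis3l2) of reads against 85.6% to 90.5% from d2. At d0 the median log2 ratio of all protein-coding genes moved from -0.32 with library totals to -0.12 with TMM and 0.07 with DESeq2 size factors.

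In undifferentiated ESCs the 4 genes were close to silent. Once LIF and 2i were withdrawn, Cubn, Lrp2 and Dab2 rose steeply by d2, and Amn mainly after d2. Cubn in shLacZ had 0.100 CPM (d0), 80.5 (d2), 417 (d4), 1618 (d6), 2258 (d8), 1143 (d10) and 927 CPM (d12). In shDis3l2 it had 0.151, 59.3, 115, 295, 508, 268 and 269.97 CPM on the same days. Cubilin RNA thus peaked at d8 in both lines, on either side of lower values, and its d0 values rested on 4 reads in each line. By d12 it stood at 41.0% of its peak in shLacZ and at 53.2% in shDis3l2. In the order of levels, d10 and d12 of shDis3l2 were the only neighbours within counting error of each other.

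Amn, the membrane anchor of cubilin, rose mainly after d2. From d0 to d12 it had 0.351, 1.14, 9.05, 36.4, 55.5, 57.6 and 44.4 CPM in shLacZ, and 0.869, 0.935, 3.82, 4.81, 22.1, 13.2 and 15.5 CPM in shDis3l2. At d2 Amn was 3.24 times its d0 level in shLacZ (1.67 to 6.61), and in shDis3l2 1.08 times (0.560 to 2.05), which is within counting error. Amn passed 20 CPM by d6 in shLacZ and by d8 in shDis3l2. Neighbouring levels within counting error were d8 and d10 in shLacZ, and d0 and d2, d4 and d6, and d10 and d12 in shDis3l2.

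Lrp2, megalin, was the earliest. Over the 7 days shLacZ had 3.13, 365, 525, 1239.8, 1498, 908 and 833 CPM. Those of shDis3l2 were 2.38, 328, 206, 272, 398, 295 and 365 CPM. At d2 megalin had reached 24.3% of its later peak in shLacZ and 82.6% in shDis3l2, where the level dipped at d4 and peaked at d8 at 1.21 times its d2 level. The peak of shLacZ was 4.11 times its d2 level.

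Dab2, the adaptor, had 0.727, 37.4, 274, 777, 1167, 1075 and 889.8 CPM in shLacZ from d0 to d12. Its values in shDis3l2 were 2.42, 36.2, 99.2, 176, 422, 402 and 427 CPM. In shDis3l2 Dab2 kept its level to d12, its highest day, which did not differ from d8 beyond counting error. The other 3 genes peaked at d8 in that line. At d12 Lrp2 was still at 91.7% of its peak there, Amn at 70.0% and Cubn at 53.2%. In shLacZ Dab2 fell back to 76.2% of its peak.

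**Figure D1:**
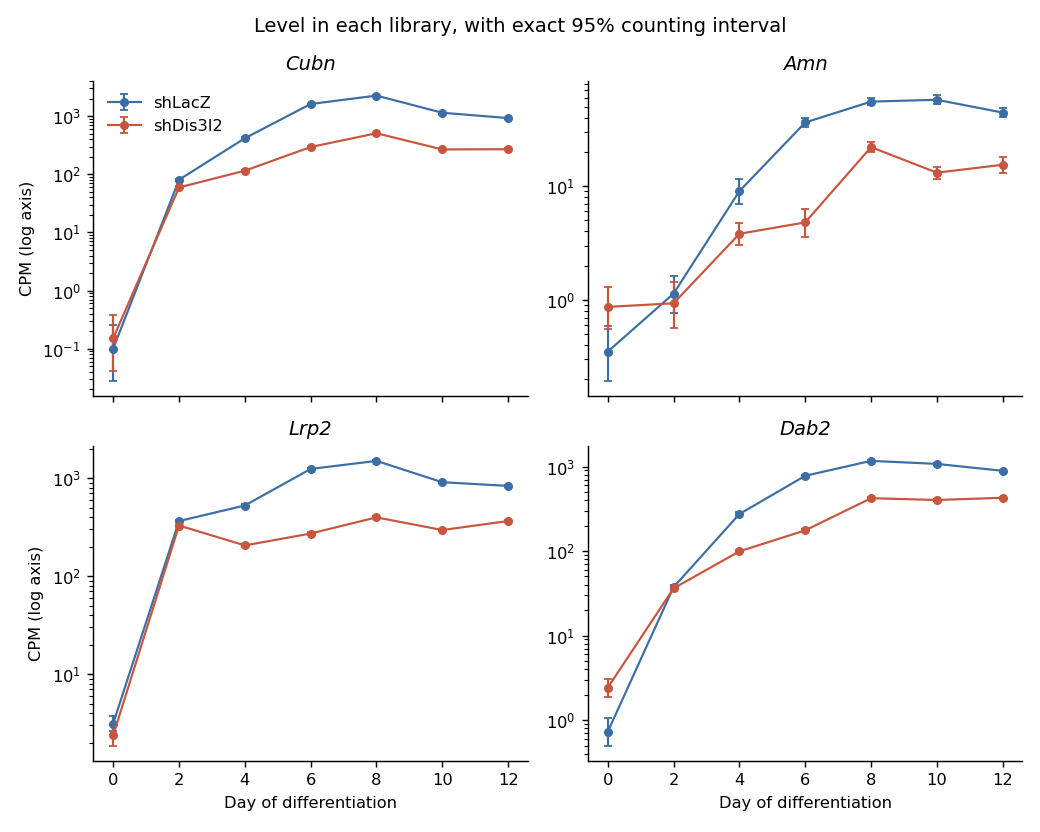
Level of each gene in CPM (log axis) against day of differentiation in shLacZ (blue) and shDis3l2 (red), with 1 library per point and bars for the exact 95% counting interval. The lines lie closest at d2, with Cubn and Lrp2 already lower in shDis3l2, and are further apart from d4. From d4 to d12 shLacZ is above shDis3l2 for all 4 genes.

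The change over days was tested in 1 edgeR fit over the 14 libraries with line as a block, in which the 2 libraries of a day served as its replicates. All 4 genes passed at a Benjamini-Hochberg adjusted p under 0.05 (Cubn 5.8e-06, Lrp2 6.1e-05, Dab2 0.000165, Amn 0.000569), as did 84.7% of the 20050 genes tested. Without d0 Lrp2 was no longer called (adjusted p = 0.110). From d0 to d2, where 34.5% of genes were called higher and 31.0% lower, Cubn rose by 9.06 ± 0.75 (SE) on the log2 scale, Lrp2 by 6.49 ± 0.59 and Dab2 by 3.88 ± 0.79, while Amn moved by 0.06 ± 0.89 (adjusted p = 0.969). From d2 to d4, where 9.25% were called higher and 8.23% lower, Cubn rose by 1.49 ± 0.44 (adjusted p = 0.0432), a call that was lost without d10 (0.0508) or d12 (0.0616). Amn at 2.52 ± 0.79 (adjusted p = 0.0537) and Dab2 at 2.08 ± 0.68 (0.0595) did not pass at this step, and Lrp2 had -0.22 ± 0.45. Amn passed without d0 (0.0121) or d6 (0.0428), and Dab2 without d0 (0.00899). From d4 to d6, where 7.54% of genes were called higher and 6.24% lower, Cubn rose by 1.74 ± 0.44 (adjusted p = 0.0276). Lrp2, Dab2 and Amn had 0.94, 1.31 and 1.45 (adjusted p = 0.198, 0.212 and 0.197), and Dab2 passed without d0 (0.0458). None of the 4 passed from d6 to d8, where 0.554% of genes were called higher and 0.175% lower. The later steps called 0% of genes in edgeR (597 higher and 223 lower at an unadjusted p under 0.05 from d8 to d10, 339 and 219 from d10 to d12) and 45 and 3 genes in DESeq2.

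From d4 on, every gene of the set was lower in shDis3l2 on every day. Of shLacZ, Cubn stood at 27.7% (d4), 18.2% (d6), 22.5% (d8), 23.4% (d10) and 29.1% (d12). Lrp2 stood at 39.2%, 21.9%, 26.5%, 32.5% and 43.8% on these days. The megalin values thus ran in parallel with those of cubilin, at a smaller difference. Amn stood at 42.2%, 13.2%, 39.8%, 22.9% and 34.8%. Dab2 stood at 36.2%, 22.6%, 36.2%, 37.4% and 48.0%. Each of these 20 exact 95% intervals lay below 100%, the widest being that of Amn at d4 (30.0% to 59.5%), which rests on 65 and 79 reads. There is 1 library per line and day, so the difference on any single day has no replicate check.

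The lines were closest at d2, where Cubn and Lrp2 were already lower in shDis3l2 beyond counting error. Cubn was at 73.7% of shLacZ (68.7% to 79.1%), Lrp2 at 90.1% (87.3% to 92.9%) and Dab2 at 96.8% (88.0% to 106%). Amn was at 82.2% (44.2% to 150%), an interval too wide to show a difference at this depth. In undifferentiated ESCs the order was the opposite for 2 genes. Dab2 had 29 reads in shLacZ and 64 in shDis3l2, a ratio of 3.32 (2.11 to 5.35), and Amn 14 and 23 reads, a ratio of 2.47 (1.22 to 5.202). For Cubn, with 4 reads in each line, and for Lrp2, at 75.9% (55.2% to 104%), no difference was detectable. The d0 levels lay between 0.100 and 3.13 CPM. With library totals each was under every later level of the same gene and line. For Amn in shDis3l2, at 0.869 CPM (d0) and 0.935 (d2), that step was within counting error. Over both lines, the Amn step from d0 to d2 was 0.06 with TMM and -0.28 with DESeq2 on the log2 scale.

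The study's own yardstick is a 3-fold difference, applied here where 1 of the lines had at least 1 CPM. At d0 only Lrp2 and Dab2 had such a level, and 0 of these 2 were lower by this much, against 2.25% of protein-coding genes. Of the 4 genes, 0 were at d2, against 0.129%. The count was 1 at d4 (against 1.68%) and 4 at d6 (4.23%). It then was 2 (3.71%), 3 (3.13%) and 1 (1.41%) on d8, d10 and d12, respectively. Cubn was the 1 gene at d4 and at d12. At d8 it was joined by Lrp2, and at d10 by Lrp2 and Amn. In the other direction only Dab2 at d0 was past it, where 0.584% of protein-coding genes were higher, a share that was 0.114%, 0.361%, 2.70%, 5.47%, 8.65% and 8.10% on the days that followed. With TMM factors or DESeq2 size factors the d12 count was 2, and the share of protein-coding genes under these scalings is not given here.

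**Figure D2:**
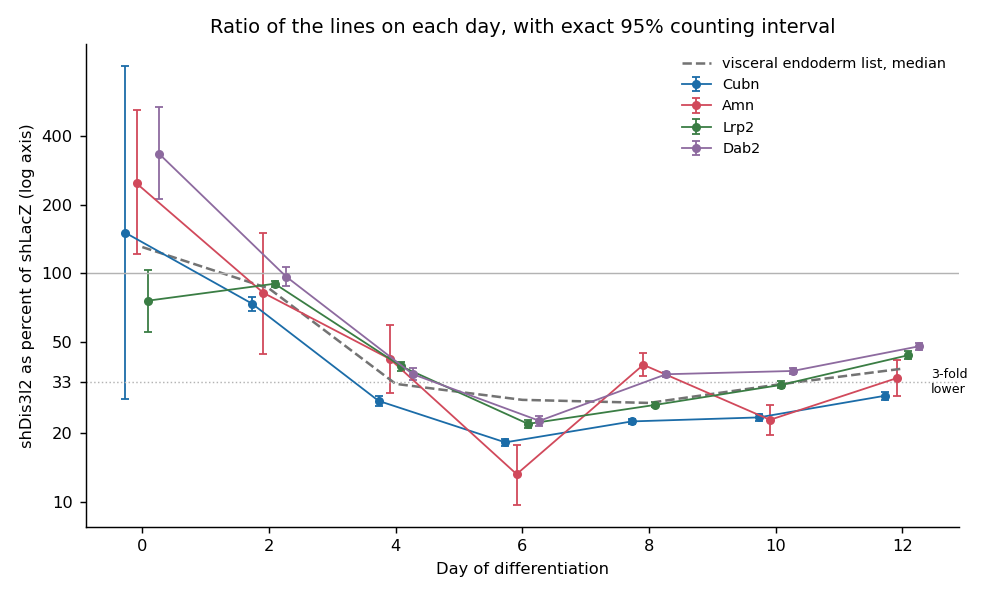
Level in shDis3l2 as percent of shLacZ (log axis) by day for the 4 genes, with exact 95% counting intervals, and the median of the visceral endoderm list (dashed). The ratios fall from between 73.7% and 96.8% at d2 to between 13.2% and 22.6% at d6 and lie between 29.1% and 48.0% at d12.

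Over d6 to d12 all 4 genes were lower in shDis3l2 in an edgeR quasi-likelihood fit with day as a block. Cubn was lower by 2.13 ± 0.11 (SE) on the log2 scale (log2 difference -2.13, adjusted p = 0.000205), a level of 22.8% of shLacZ. The values for Amn were -1.92 ± 0.24 (adjusted p = 0.00161), for Lrp2 -1.74 ± 0.15 (0.000592) and for Dab2 -1.53 ± 0.16 (0.000922), all after Benjamini-Hochberg adjustment over 17164 genes. In this fit 18.7% of the genes tested were called lower and 19.6% higher, and the median over all of them was 0.02. In all, 95 genes had a lower value than Cubn, 163 than Amn, 251 than Lrp2 and 394 than Dab2. The fit treats the days of 1 series as replicates, so its p-values do not extend to further cultures of the lines. All 4 calls held with each late day left out. Dis3l2 itself was not called over these days (-0.35 ± 0.16, adjusted p = 0.126). With d6 and d12 alone, the late days on which Dis3l2 was detectably lower, a choice made after seeing the data, the 4 values were -2.13 (Cubn), -2.19 (Amn), -1.71 (Lrp2) and -1.62 (Dab2), with adjusted p from 0.118 to 0.139. That fit of 4 libraries called 0 of 15950 genes in edgeR, with 1566 lower and 1583 higher at an unadjusted p under 0.05.

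Over the 7 days, where 3.82% of 20050 genes were called lower and 1.91% higher, Cubn (-1.80 ± 0.26, adjusted p = 0.0129) and Lrp2 (-1.30 ± 0.26, 0.0253) passed. Amn (-1.40 ± 0.40, adjusted p = 0.0648) and Dab2 (-1.03 ± 0.37, 0.117) did not, the pair that was higher in shDis3l2 at d0, and without d0 both passed (0.0159 and 0.0187). The calls of Cubn and Lrp2 were lost without d8 (adjusted p = 0.0670 and 0.0946), d10 (0.0625 and 0.0949) or d12 (0.0606 and 0.0888), and that of Lrp2 without d6 (0.0715). The change in the line difference between the early days (d0 to d4) and the late days (d6 to d12) was called for Lrp2 (-1.21 ± 0.32, adjusted p = 0.0366), as for 5.24% of genes toward lower and 4.85% toward higher values. For Cubn (-1.13 ± 0.35, adjusted p = 0.0642), Amn (-1.73 ± 0.56, 0.0767) and Dab2 (-1.36 ± 0.53, 0.126) it was not. The call of Lrp2 did not hold without d0 (adjusted p = 0.107), d2 (0.185), d6 (0.0610), d8 (0.0984) or d10 (0.0842), whereas without d4 Cubn (0.00828), Amn (0.0332) and Dab2 (0.0204) were called.

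Levels were compared between genes per length, as TPM, which scales reads by gene length and then by library. At d8 in shLacZ Dab2 had 349 TPM, Cubn 332, Lrp2 197 and Amn 72.2, which placed Dab2 at rank 197 and Cubn at rank 215 among 21939 protein-coding genes. In shDis3l2 the same day gave 127 TPM for Dab2, 75.0 for Cubn, 52.6 for Lrp2 and 28.9 for Amn. The order was the same in both lines on that day. At d2 megalin led in both lines, with 46.8 TPM in shLacZ and 38.9 in shDis3l2, and was 4.05 and 4.95 times the cubilin level. By d6 Lrp2 was at 0.685 (shLacZ) and 0.826 (shDis3l2) of the cubilin level. At d10 and d12 it was at 0.710 and 0.804 in shLacZ, and at 0.986 and 1.21 in shDis3l2, where megalin again exceeded cubilin at d12. From d2 to d12 there was more Cubn than Amn RNA in every library, with a ratio of their TPM that went from 7.98 at d2 to 2.35 at d12 in shLacZ and from 7.16 to 1.97 in shDis3l2. Dab2 rose against both receptors, from 0.233 of the Lrp2 level at d2 to 2.43 times it at d12 in shLacZ and from 0.251 to 2.66 in shDis3l2. The ratio of Dab2 to Cubn at d12 was 1.95 in shLacZ and 3.22 in shDis3l2. These ratios are descriptions, with no test.

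**Figure D3:**
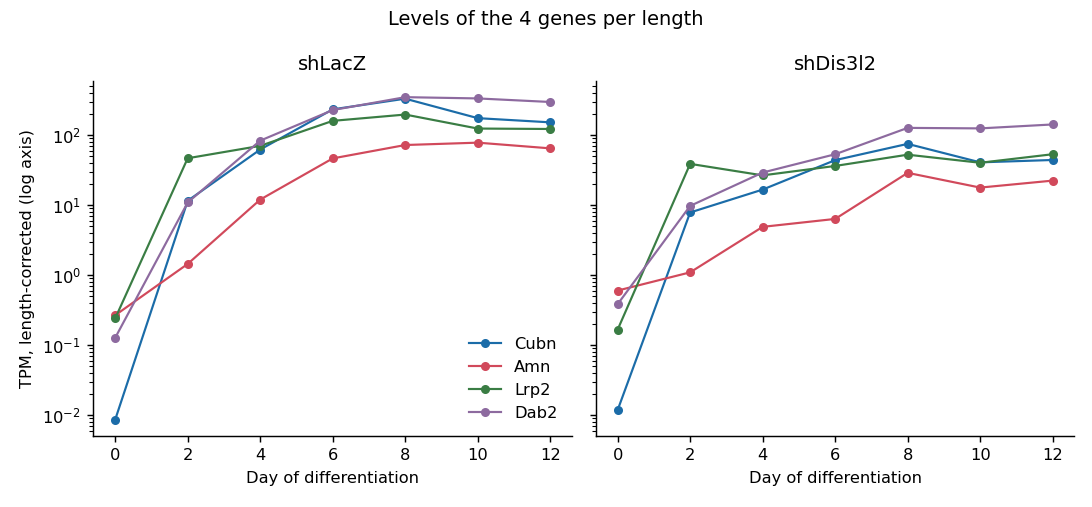
Length-corrected level (TPM, log axis) of the 4 genes by day in shLacZ (left) and shDis3l2 (right), 1 library per point. Lrp2 leads at d2 in both lines, Dab2 and Cubn lead at d8, and Amn is lowest from d2 to d12.

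Proteins that fold, sort or share cargo with these receptors formed a list of 11 partners. Over d6 to d12, 7 were lower in shDis3l2, 1 was higher and 3 did not pass, with a median log2 difference of -0.33. Over all genes tested in this fit, 18.7% were called lower and 19.6% higher. Lrpap1, the chaperone that keeps ligands off megalin on its way to the surface, was lower by 1.10 ± 0.11 (log2 difference -1.10, adjusted p = 0.000879). Its level was 452, 687, 761 and 781 CPM from d6 to d12 in shLacZ and 158, 333, 369 and 451 in shDis3l2. Folr1, a folate receptor taken up with megalin, had -1.499 ± 0.20 (adjusted p = 0.00217), and the adaptor Dab1 -2.19 ± 0.19 (0.000572). Dab1 had only 1.32 to 14.4 CPM on these days. Myo6, a motor that moves endocytic vesicles, had -0.86 ± 0.16 (adjusted p = 0.00723). Gipc1 (-0.33) and Clcn5, the endosomal chloride exchanger mutated in Dent disease (-0.31), were also called lower. Fcgrt, which carries albumin and IgG, was the 1 gene higher (1.51 ± 0.47, adjusted p = 0.0414), at 24.3 CPM in shDis3l2 and 4.36 in shLacZ at d12. Ocrl (0.15), Snx17 (0.12) and the chaperone Mesdc2 (0.16) did not pass.

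**Figure D4:**
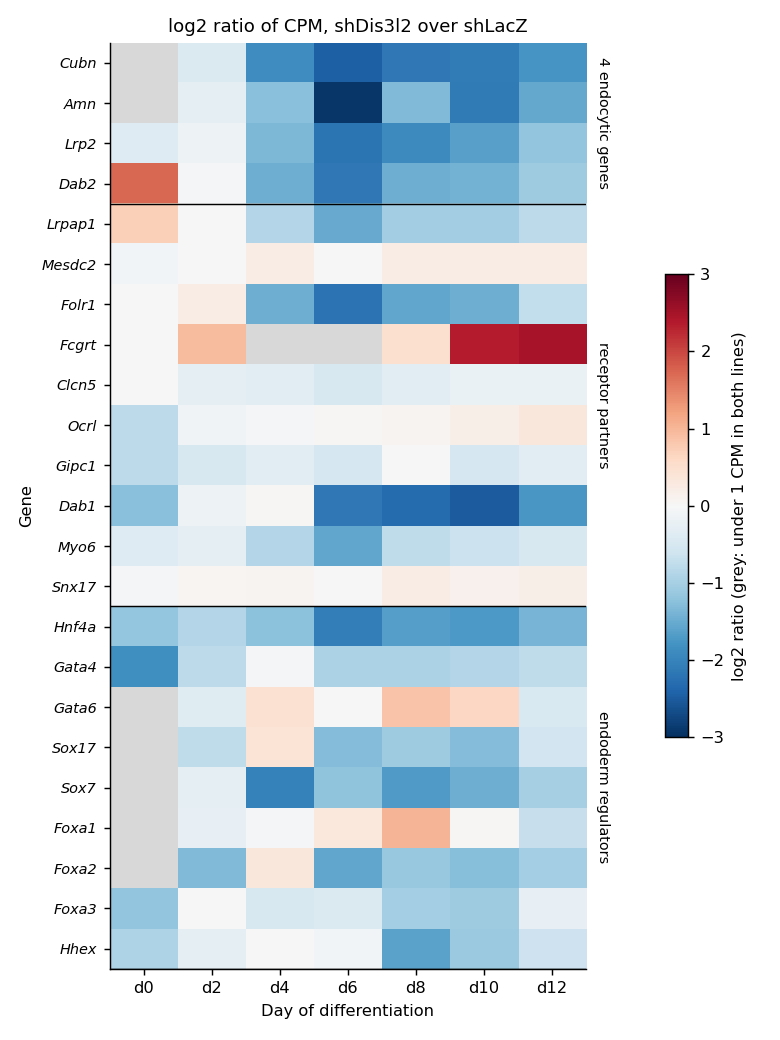
The log2 ratio of CPM, shDis3l2 over shLacZ, on each day for the 4 genes, 10 partners and 9 endoderm regulators, with grey for genes under 1 CPM in both lines. Blue (lower in shDis3l2) fills the 4 upper rows from d4 on and many partner and regulator rows from d6, while Fcgrt is red at d10 and d12.

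Of 20 ligands, 18 were tested over d6 to d12, of which 9 were lower in shDis3l2, 5 higher and 4 not called (median -0.94). Apob (-2.25 ± 0.11), Apom (-1.88 ± 0.09), Mt1 (-1.82 ± 0.26) and Apoe (-1.40 ± 0.10) were among the lower. Several of these ligands are themselves products of the visceral endoderm. Of 13 other LDL receptor family members tested, 3 were lower, 6 higher and 4 not called, with a median of 0.06. Beside both lists stand 18.7% of all genes tested called lower and 19.6% higher. The lower ones, named after their values were seen, were Lrp8 (-0.70, adjusted p = 0.0469), Lrp10 (-0.48, 0.00401) and Sorl1 (-0.36, 0.0445). Lrp1, a relative of megalin common in mesenchyme, was higher (1.52 ± 0.13, adjusted p = 0.000557), at 397, 473, 505 and 496 CPM in shDis3l2 against 191, 149, 141 and 169 in shLacZ from d6 to d12. At d2 Lrp1 had 170 CPM in shLacZ and 175 in shDis3l2. Lrp12 and Lrp4 were higher by 1.09 each and Lrp1b, low in both lines, by 3.80, while Lrp6 (0.03) did not pass.

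For the general machinery of uptake, 5 of 21 clathrin coat genes were lower, 4 higher and 12 not called (median -0.03), where 18.7% of all genes tested were lower and 19.6% higher. The largest called differences were those of Numbl (1.93 ± 0.09, adjusted p = 0.000189), Hip1r (-1.18, 0.00186) and Fcho1 (-1.06, 0.0129), which code for accessory or adaptor proteins of endocytosis. The clathrin heavy chain Cltc was lower by 0.64 ± 0.06 (log2 difference -0.64, adjusted p = 0.00084), and the light chain Clta (-0.03) and the adaptor subunit Ap2b1 (0.11) did not pass. Among 17 endosome and lysosome genes 10 were lower, 1 higher and 6 not called (median -0.39), with Ctsl (-1.23), Lamp1 (-0.92), Atp6v0d1 (-0.85) and Vps35 (-0.65) lower. Of 12 genes for the handling of vitamin B12, 4 were lower, 1 higher and 7 not called (median -0.21). Tcn2, the plasma carrier of the vitamin, was lower by 0.61 (log2 difference -0.61), and the lysosomal exporters Abcd4 and Lmbrd1 had -0.48 and -0.38. Mmab, an enzyme that activates the vitamin, was higher (0.53). Mtr, the B12-dependent methionine synthase, had 0.13, and the trafficking protein Mmadhc 0.17, and neither passed.

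Visceral endoderm markers moved with the 4 genes. Of 16 markers, 15 were tested over d6 to d12 and 13 were lower in shDis3l2, 0 higher and 2 not called, with a median of -1.73 beside -1.83 for the 4 genes. The shares over all genes tested were 18.7% lower and 19.6% higher. Transthyretin (Ttr, -1.69 ± 0.17), Afp (-2.06 ± 0.32), Slc2a2 (-1.97 ± 0.20) and Apob (-2.25 ± 0.11) were among them. Their summed level over d6 to d12 was 1475 to 6491 CPM in shLacZ and 391 to 1905 CPM in shDis3l2. From d4 to d12, the log2 ratio of a member on a day differed from the median of this list on that day by -1.08 to 0.56. In bulk RNA, fewer cells of a type and less RNA per cell cannot be told apart. The role of visceral endoderm in the receptor values was not tested.

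The regulators of this lineage were lower too, with 9 of 11 called, 0 higher and a median of -1.06, where 18.7% of all genes tested were called lower. The nuclear receptor Hnf4a had -1.70 ± 0.11 (adjusted p = 0.000339), at 54.6, 102, 101 and 88.4 CPM from d6 to d12 in shLacZ and 13.0, 32.5, 30.5 and 33.8 in shDis3l2. Sox7 (-1.34), Foxa2 (-1.24), Sox17 (-1.06), Gata4 (-0.90), Hhex (-0.86) and Foxa3 (-0.71) were also called lower. Gata6 (0.25) and Foxa1 (0.20) did not pass. Of 10 parietal endoderm markers 8 were lower and 0 higher (median -0.99), with Srgn at -1.87, Col4a1 at -1.34, Col4a2 at -1.30, Lama1 at -1.27 and Sparc at -0.63. Their sum was 9329 to 50771 CPM in shLacZ and 3946 to 25940 CPM in shDis3l2.

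Markers of other cell types were measured in the same way, in the fit that called 18.7% of all genes tested lower and 19.6% higher. Mesenchyme markers were higher in shDis3l2, 9 of 10 called and 0 lower (median 3.05), with sums of 398 to 1941 CPM in shLacZ and 1245 to 16815 in shDis3l2. Col1a1 (3.46 ± 0.28), Dcn (4.15 ± 0.28), Col1a2 (3.68), Lum (3.17) and Col3a1 (3.03) were among those called. Of 10 macrophage markers 7 were higher and 0 lower, with sums of 15.0 to 50.7 CPM in shLacZ and 14.3 to 213 in shDis3l2. Macrophages also make Dab2. At d6, when Dab2 stood at 22.6%, 6 of the 10 markers (Adgre1, C1qa, C1qb, C1qc, Ptprc and Tyrobp) were at 0 in both lines. The others that day had, in shLacZ and shDis3l2 in turn, 9.55 and 4.995 CPM (Cd68), 3.01 and 0.848 (Csf1r), 2.33 and 8.20 (Mrc1) and 0.150 and 0.283 (Fcer1g). At d10, when Dab2 stood at 37.4%, the 10 markers summed to 32.0 CPM in shLacZ and 80.5 in shDis3l2. At d12, with Dab2 at 48.0%, the sums were 50.7 and 213 CPM. Of 8 endothelial markers 3 were higher and 0 lower (Kdr 1.61 ± 0.36, Emcn 1.39 and Cldn5 0.76), while Pecam1 (0.49) and Cdh5 (-0.53) did not pass. Of 8 neuroepithelial markers tested, 3 were lower (Sox1 -2.58, Sox2 -1.33 and Pax6 -1.08) and 2 higher (Ncam1 2.40 and Nes 1.06). What these cells added to the receptor values was not tested.

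For the kidney, the data held few of the genes that go with these receptors in the proximal tubule. Of 28 tubule markers, 12 stayed under 1 CPM in every library, Slc34a1 and Kap, named after their values were seen, were at 0 in all 14, and 13 could be tested. Their sum over d6 to d12 was 130 to 165 CPM in shLacZ and 142 to 188 in shDis3l2, and 5 were lower, 1 higher and 7 not called (median -0.60). Slc7a9 (-1.79), Pdzk1 (-1.45), Slc5a1 (-1.32) and Slc6a19 (-2.55) were lower, and Anpep, a peptidase of many epithelia, was higher (1.26 ± 0.34). Mme (0.10) and Slc7a8 (0.22) did not pass. Among all genes tested 18.7% were called lower and 19.6% higher. Of 9 genes of the early renal epithelium 7 were tested, of which 3 were lower (Lhx1, Fgf8 and Cdh6), 0 higher and 4 not called, Jag1 (0.24) among them. Lhx1 was highest at d4, at 93.5 CPM in shLacZ and 316 in shDis3l2, before the peak of the 4 receptor genes. Fgf8 too was highest at d4 (23.8 and 45.3 CPM). The highest level in any library was 1.03 CPM for Pax2, 1.33 for Cdh16, 3.11 for Pax8 and 3.97 for Emx2. It was 26.9 CPM for Wnt4, 53.1 for Cdh6 and 58.9 for Jag1. Whether any of these genes marked renal cells here was not tested.

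**Figure D5:**
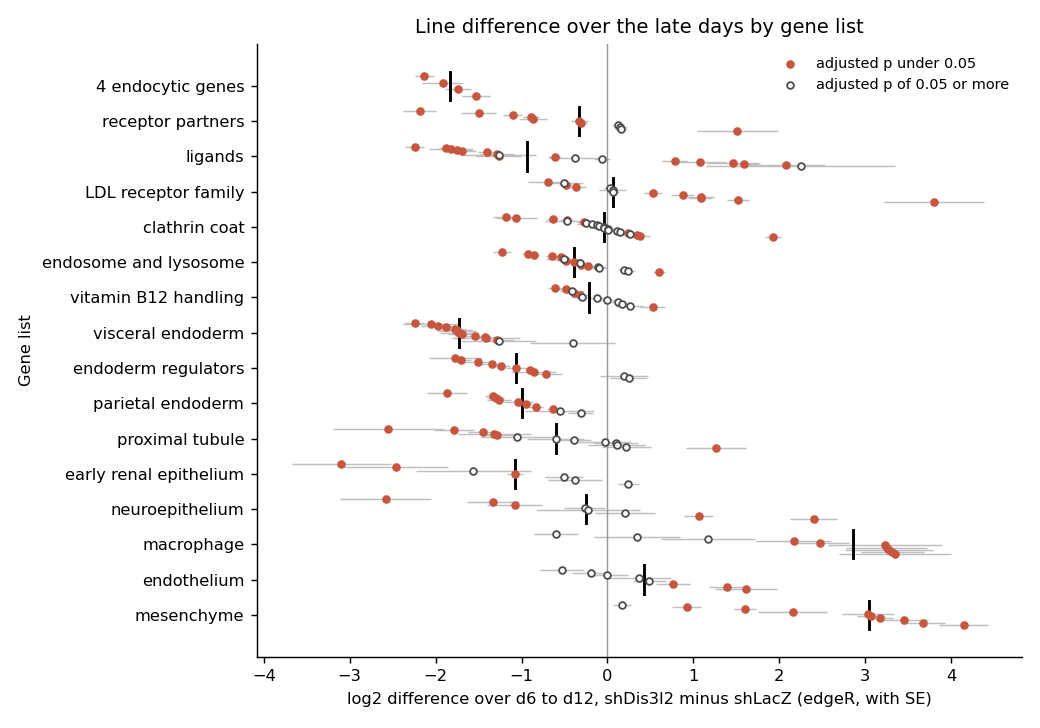
Line difference over d6 to d12 (log2, shDis3l2 minus shLacZ, edgeR, with SE) for each gene tested, by list, with filled points for an adjusted p under 0.05 and black bars for the median. The 4 endocytic genes and the visceral endoderm markers sit to the left of 0, with medians of -1.83 and -1.73, and the mesenchyme markers sit to the right.

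The protein-coding genes whose course was most like that of each member were found by Pearson correlation of log2(CPM + 1) over the 14 libraries, among 13549 genes with a mean of at least 1 CPM. The 14 points share 7 days and 2 lines, so the values are descriptions. For Cubn these were Washc5 (r = 0.992), Cltc (0.985), Cldn6 (0.982), Arhgap18 (0.981) and Dab2 (0.979). For Amn they were Mia2 (r = 0.992), Nostrin (0.990), Ap2a2 (0.987), Hnf4a (0.986) and Atp6v0a1 (0.986). Mia2 and Nostrin, like Amn, were still near 0 at d2. The genes nearest to Lrp2, an early riser, were Slc38a9 (r = 0.989), Usp32 (0.984), Abhd13 (0.984), Ippk (0.983) and Scyl2 (0.983). The genes nearest to Dab2 were Wdr81 (r = 0.991), Fnip1 (0.986), Apob (0.985), Foxq1 (0.984) and Abhd5 (0.983). A high r did not mean a line difference of like size. Over d6 to d12 Washc5 had a log2 difference of -0.46, beside -2.13 for Cubn. Fnip1 had -0.18 (edgeR, adjusted p = 0.146), beside -1.53 for Dab2. The 5 genes nearest to Lrp2 had -0.66 to -0.34, beside -1.74. Closer in size to the members were Apob (-2.25), Mia2 (-1.72) and Hnf4a (-1.70), among others. Among the members, r was 0.979 for Cubn and Dab2, 0.970 for Cubn and Lrp2, 0.920 for Lrp2 and Dab2, 0.918 for Amn and Dab2, 0.860 for Cubn and Amn and 0.741 for Amn and Lrp2. Cubilin and its anchor were thus less alike than cubilin and the adaptor. Of the nearest 5 of Cubn, the log2(CPM + 0.25) scale kept 2.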

How the data were processed

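PolyA RNA of 14 libraries (2 lines, 7 days, 1 library each) was sequenced. Per the study's methods, the authors used Subread (GRCm38) for alignment and featureCounts for counting, and the deposited counts are raw. They also deposited CPM values of 16181 genes, scaled to the library total of listed protein-coding genes, which were used as an alternative and for gene symbols. The shDis3l2 columns carry the hairpin name shm5 in both tables and were matched to shDis3l2 by day, as the other line. The gene length column served for TPM. Whether counting used strand is not given in the sources used here.

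Counts were divided by library totals (7178712 to 39888099 reads) to give CPM, with a prior count of 0.25 for the fold criterion (3-fold, 1 CPM, protein-coding genes). Intervals of a level (Poisson) and of a ratio (Clopper-Pearson) are exact at 95%. Line, day and interaction effects came from the quasi-likelihood F test of edgeR 4.0.16 under R 4.3.3, after filterByExpr and TMM, at a Benjamini-Hochberg adjusted p under 0.05 over all genes tested. The labels carry no replicate numbers. The alternatives were library totals, DESeq2 1.42.0, no filter, no day block, each day left out, other scalings, a 2-fold threshold and other likeness measures. Other steps used Python 3.11.15, scipy 1.17.1 and pandas 2.3.3. Fits and the fold criterion were tested on simulated data.

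The 4 genes and the gene lists were chosen with earlier results of these data known. Named genes were the members, Dis3l2, all partners and endoderm regulators, for other lists up to 3 genes of highest mean CPM and up to 4 called genes of largest difference over d6 to d12, and the 5 genes most like each member. A few of the genes so chosen are not reported here.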

Additional observations from a re-analysis of the deposited data

Results flagged for a closer look

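For 9 genes reported here among the 4 members, the partners, the LDL receptor family and the endoderm regulators, the line difference changed between the early days (d0, d2, d4) and the late days (d6 to d12) in the edgeR interaction test at an adjusted p under 0.05. It fell, on the log2 scale, for Lrp2 (-1.21, adjusted p = 0.0366), its chaperone Lrpap1 (-1.22, 0.0486), the adaptor Dab1 (-1.91, 0.00765) and the regulators Hnf4a (-0.75, 0.0491) and Foxa2 (-1.40, 0.0483). It rose for Lrp1 (1.48, adjusted p = 0.00296), Lrp12 (1.25, 0.0165), Lrp4 (1.25, 0.0223) and Lrp1b (3.67, 0.0335), whose level was under 0.3 CPM in shLacZ from d4 on. Megalin and its relative Lrp1 thus moved in opposite directions.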

How the results depend on the processing

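Under library totals, DESeq2, no filter, no day block and each late day left out, the 4 genes stayed called lower over d6 to d12, and no called value of the 4 genes changed direction under any alternative run. The labels give no replicate numbers, but the lines were paired by day. The main fits block on day, and without that replicate block the d6 to d12 fit called 1439 genes lower and 1895 higher, while the 7-day fit called 0 and 0 in edgeR (251 lower and 376 higher at an unadjusted p under 0.05), with Cubn at -2.15 and Lrp2 at -1.57 no longer called. With d6 and d12 only, the counts were 0 and 0, and Cubn (-2.13), Amn (-2.19), Lrp2 (-1.71) and Dab2 (-1.62) were not called. DESeq2 called 1446 genes lower and 1065 higher over the 7 days, with Amn at -1.23 called, and called the early to late change of Cubn (-1.19) and Amn (-1.92). With no filter the 7-day counts were 1246 and 847, with Amn (-1.38) and Dab2 (-1.01) called, and 1788 genes were called higher in the early to late change, with Cubn (-1.12), Amn (-1.72) and Dab2 (-1.34) called. With library totals the early to late change was called lower for 415 genes, and Lrp2 (-1.06) was not called.

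Leaving out 1 day at a time, the d6 to d12 values ranged from -2.23 to -2.03 (Cubn), -2.15 to -1.67 (Amn), -1.91 to -1.59 (Lrp2) and -1.67 to -1.33 (Dab2), with 1641 to 3237 genes lower and 1695 to 3440 higher. The 7-day values ranged from -2.02 to -1.66, -1.67 to -1.11, -1.47 to -1.14 and -1.29 to -0.81 in the same order of genes, with 7 to 1348 lower and 1 to 841 higher. The early to late change ranged from -1.87 to -0.45, -2.57 to -1.06, -1.68 to -0.86 and -2.20 to -0.79, with 209 to 982 lower and 315 to 1169 higher. The day effect was called for 11270 to 16894 genes.

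At a 2-fold threshold 4 genes were lower at d4, d8 and d12. The share of protein-coding genes past 2-fold on these days is not given here, so this count has no background beside it. TMM scaling gave ratios of 0.296 (Cubn), 0.419 (Lrp2) and 0.387 (Dab2) at d4 and 0.217, 0.256 and 0.349 at d8. At d12 TMM gave 0.272, 0.410 and 0.449, DESeq2 size factors gave 0.276, 0.414 and 0.454, and each put 2 genes past 3-fold. The share of protein-coding genes past 3-fold at d12 was 1.41% with library totals and is not given here for these scalings. Of the 5 genes most like a member, log2(CPM + 0.25) kept 2 for Cubn, and Spearman correlation kept 1 for Cubn, 2 for Amn, 1 for Lrp2 and 0 for Dab2. The cause of these shifts was not tested. Depth limits the d0 values of Cubn (4 reads a line) and the d2 ratio of Amn.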
